A study of Mus musculus with 12 samples.

Results

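Tmem100, a small membrane protein of endothelial cells, was 2.46-fold higher in the hearts of Adam19 knockout (KO) mice than in those of wild-type (WT) mice, and 1.23-fold lower in their lungs. The question was whether Tmem100 differed in this way alone or together with the receptor pathway that controls it. The 8 genes described here, taken by name from 55679 genes, were the receptors Acvrl1, Eng and Bmpr2, the signal transducer Smad9, and the targets Tmem100, Id1, Id2 and Id3. Tmem100 was selected on its measured log2 differences between the genotypes, which point in opposite directions in the 2 tissues, and the others by name as its pathway. The genotype values of Tmem100 are therefore given as a description with no test. The other 7 genes are called its partners below. In short, the receptors showed no such pattern, Id1 showed it in every library, as 0.617% of all genes did, and Id3 and Id2 had higher means in KO hearts. None of these differences of Id1, Id2 and Id3 passed the test over all genes.

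Bone morphogenetic proteins BMP9 and BMP10 circulate in blood and bind a complex on endothelial cells made of the type I receptor ALK1 (gene Acvrl1), the type II receptor BMPR2 and the co-receptor endoglin (Eng). The complex phosphorylates SMAD1, SMAD5 and SMAD9 (also called SMAD8), which enter the nucleus with SMAD4 and switch on targets such as the Id genes, whose proteins block basic helix-loop-helix transcription factors. Tmem100 is a target of ALK1 signalling in the endothelium and is needed for the forming arteries and the endocardium of the embryo. Inherited loss of ACVRL1 or ENG causes hereditary haemorrhagic telangiectasia, and loss of BMPR2 causes pulmonary arterial hypertension. The lung, with its dense capillary bed, is a main site of this pathway in the adult.

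Whole lungs and whole hearts were taken from 6 males, 9 to 13 weeks old, whose strain was 129S6/SvEvTac. There were 3 WT and 3 KO mice, and each gave 1 library per tissue, so that replicate numbers 1 to 3 mark the same mouse in lung and heart. The KO mice were homozygous for an allele in which a tdTomato construct stands in every cell where Adam19 exons 6 and 7 had been. Adam19 encodes a membrane-bound metalloprotease. The mouse identifiers share no prefix between the genotypes, so that a litter or cage, if the prefix marks one, cannot be told apart from genotype. Bulk RNA of a whole organ cannot tell fewer cells of a type from less RNA per cell.

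The libraries held 17674788 to 35862932 estimated counts. WT heart replicates 2 and 3 were shallower (20381284 and 18392292) than the other hearts (31784742 to 35862932). The libraries also differed in the share of summed abundance taken by the gene Rn7s1. It was 34.0%, 29.9% and 2.10% in WT lungs and 10.5%, 3.22% and 20.3% in KO lungs, replicates 1 to 3. In the hearts it was between 2.70% and 11.8%. The part of this share in the values of other genes was not tested. Gene values are the deposited ones, on a log2 scale with a scaling between libraries, and are called normalised log2 values. Differences are KO minus WT on this scale, which understates the change of genes with few counts. Adam19 itself was between 3.21 and 4.44 in KO lungs against 9.12 to 9.41 in WT lungs (log2 difference −5.51, adjusted p = 0.000186 from limma), and between 6.01 and 6.67 in KO hearts against 9.17 to 10.27 in WT hearts (−3.14, adjusted p = 0.00558). The gene values of Adam19 do not follow its transcripts, whose summed estimated counts were 658 to 1218 in WT hearts and 7.40 to 12.1 in KO hearts, a wider difference than the gene values give. The defining endothelial markers were present in all libraries: none of 16 genes was at 0, and their summed level was 16.37 to 16.55 in the lungs and 14.90 to 15.03 in the hearts.

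The DNA before the start sites of the targets shows which of them carry the letters of the BMP response element, a GC-rich stretch and the letters GTCT with 5 free bases between them, to which SMAD proteins bind. It was searched as GNCGNCNNNNNGTCT on both strands in the 2000 bases before the start of the most abundant transcript. Windows are given 5′ to 3′ on the strand of the gene, from the GRCm39 assembly, with the matching letters in capitals and 15 bases on each side. The matches of Id1 at chr2:152577111-152577155 (forward strand, 1039 bases before the start), Id2 at chr12:25148838-25148882 (reverse strand, 1585 bases before it) and Id3 at chr4:135870611-135870655 (forward strand, 182 bases before it) read as follows, and the last line is the stretch of 150 bases that ends at the start of Tmem100 (chr11:89920972-89921121, forward strand), shown in lower case because it holds no match.
Id1: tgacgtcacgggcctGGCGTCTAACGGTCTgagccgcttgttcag
Id2: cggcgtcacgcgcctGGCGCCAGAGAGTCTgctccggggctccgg
Id3: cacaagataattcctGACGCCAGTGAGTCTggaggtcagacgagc
Tmem100: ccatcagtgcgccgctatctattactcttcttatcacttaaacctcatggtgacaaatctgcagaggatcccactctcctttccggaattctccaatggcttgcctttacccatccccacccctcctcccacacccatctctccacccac

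A match was present in 1.51% of the 21757 protein-coding promoters of the same length. For these promoters and the 12 other BMP targets, the start was that of the transcript marked as canonical in the annotation. It need not be the most abundant one. Id1, Id2 and Id3 each had 1 match in this window. Tmem100, the 3 receptor genes and Smad9 had none, nor did the 12 other BMP targets listed below. The shorter palindrome GGCGCC, which the match of Id2 contains, was found before Bmpr2, Smad9, Id1 and Id2 and in 18.3% of all promoters, and not before Tmem100. The letters CACGTG, an E-box, were found at 2 places before Tmem100 and at 1 before Bmpr2 and Id2 each, and not before Acvrl1, Eng, Smad9, Id1 and Id3, beside 24.4% of all promoters. A match is a run of letters, not a bound site, and its absence says only that these letters are not in the window.

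Tmem100 (ENSMUSG00000069763.4, chr11:89921122-89928844, forward strand, 1 transcript, no overlapping gene) was measured at 12.82, 12.59 and 12.96 in WT lungs and at 12.57, 12.39 and 12.51 in KO lungs, replicates 1 to 3 in each group. All 3 KO lungs lay below all 3 WT lungs, although the gap between the groups was only 0.02. In the heart the gene was at 6.72, 7.17 and 6.50 in WT mice and at 8.01, 8.21 and 8.06 in KO mice. Here all 3 KO hearts lay above all 3 WT hearts, with a gap of 0.84.

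The mean log2 difference of Tmem100 was −0.30 (standard error 0.15) in the lung and 1.30 (standard error 0.21) in the heart, so that the heart difference exceeded the lung difference by 1.60 (standard error 0.24). Of all genes tested, 31.1% had a difference at least as large as that of Tmem100 in the lung, and 2.18% in the heart. The pattern of every KO lung below and every KO heart above its WT group was found in 109 of 17666 genes (0.617%). In estimated counts, Tmem100 had 112, 82 and 51 in WT hearts against 276, 310 and 285 in KO hearts. The WT heart with 112 was replicate 1, which held 33906290 estimated counts in all, and the part of depth was not tested. When single libraries were dropped, the lung difference ranged from −0.40 to −0.22 and the heart difference from 1.15 to 1.48.

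Tmem100 lies on the chromosome of the targeted gene, 43.9 megabases from Adam19. Lung RNA in the heart libraries could carry Tmem100 with it, since the gene was much higher in lung. Markers of lung epithelium (Sftpc, Sftpa1, Scgb1a1 and Ager) were therefore used to put a size on it. Taken at the share of the lung level that each marker had in a heart library, lung RNA would amount to 0.297% to 11.4% of the Tmem100 measured in KO hearts and 0.38% to 19.97% of that in WT hearts, the highest in WT heart replicate 3. Without that WT heart the heart difference was 1.15. Epithelial markers need not carry the share of endothelial RNA, and the part of lung RNA in the Tmem100 result was not tested.

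**Figure D1:**
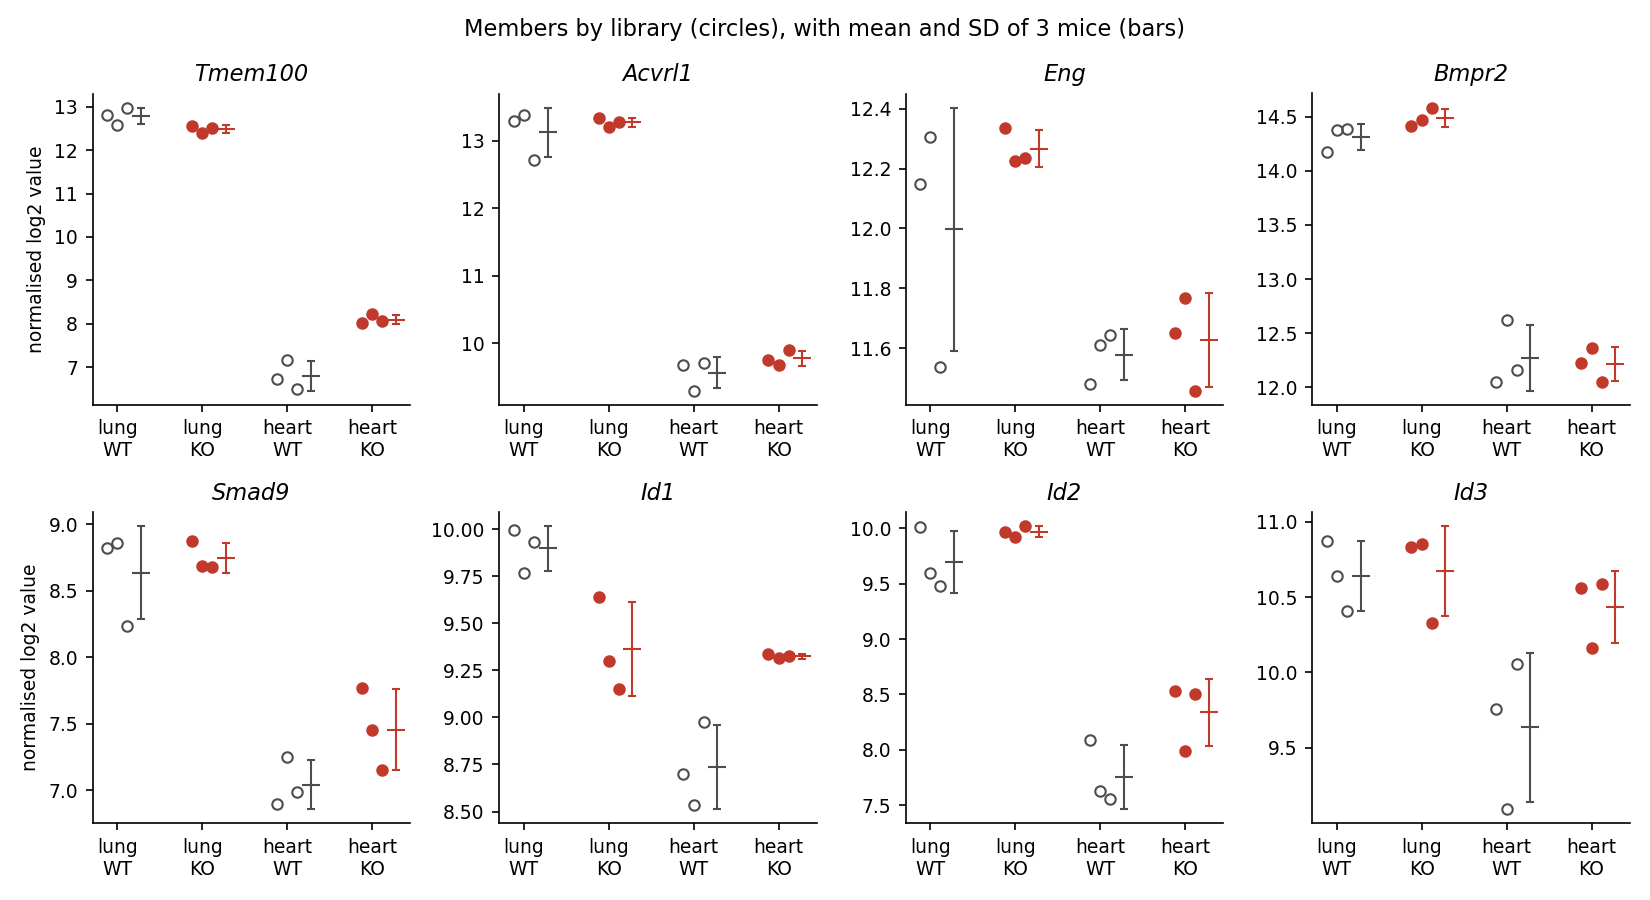
Normalised log2 value (vertical axis, its own range in each panel) of the 8 genes in each of the 12 libraries; open circles are WT mice, filled circles KO mice, and the bars beside them give the mean and SD of 3 mice. Tmem100 and Id1 are lower in every KO lung and higher in every KO heart than in the WT libraries of the same tissue, and the WT lung at 11.54 stands apart from the others in Eng.

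The receptors did not show the pattern of Tmem100. Acvrl1 (ENSMUSG00000000530.17), which encodes ALK1, was at 13.30, 13.38 and 12.71 in WT lungs and 13.34, 13.21 and 13.27 in KO lungs. In the heart it was at 9.67, 9.30 and 9.71 in WT and 9.76, 9.68 and 9.90 in KO mice. The groups overlapped in both tissues. The log2 difference of Acvrl1 was 0.15 (95% interval −0.30 to 0.60) in the lung and 0.22 (−0.13 to 0.56) in the heart, and the difference between tissues was 0.07 (−0.47 to 0.61). Without WT heart replicate 2, the lowest of its group, the heart difference was 0.085.

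Eng (ENSMUSG00000026814.17), the co-receptor endoglin, was at 12.15, 12.30 and 11.54 in WT lungs and at 12.34, 12.23 and 12.24 in KO lungs. In the heart its values were 11.48, 11.61 and 11.64 in WT and 11.65, 11.77 and 11.46 in KO mice. The WT lung of replicate 3 was the low one in Eng, as it was in Acvrl1, and the groups overlapped. The difference of Eng was 0.27 (95% interval −0.20 to 0.74) in the lung and 0.05 (−0.24 to 0.33) in the heart. Without that WT lung it was 0.039 in the lung, and that of Acvrl1 was −0.061. The heart difference of Eng was −0.023 without KO heart replicate 2.

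Bmpr2 (ENSMUSG00000067336.7), the type II receptor, was at 14.18, 14.38 and 14.39 in WT lungs and at 14.42, 14.47 and 14.58 in KO lungs. Every KO lung was above every WT lung, by a gap of 0.03, which is the direction opposite to that of Tmem100. In the heart the values were 12.05, 12.62 and 12.16 in WT and 12.22, 12.36 and 12.05 in KO mice, and the groups overlapped. The difference of Bmpr2 was 0.18 (95% interval −0.17 to 0.52) in the lung and −0.06 (−0.45 to 0.33) in the heart. It was 0.11 in the lung without WT lung replicate 1, and in the heart it ranged from −0.18 (without WT heart replicate 1) to 0.11 (without WT heart replicate 2), with the sign turned without KO heart replicate 3 as well.

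Smad9 (ENSMUSG00000027796.3), the transducer, was the gene of the 8 with the lowest level per length. It was at 8.82, 8.86 and 8.23 in WT lungs and at 8.88, 8.69 and 8.68 in KO lungs. In the heart it was at 6.90, 7.25 and 6.98 in WT and at 7.77, 7.45 and 7.15 in KO mice. Of the KO hearts, 2 were above the highest WT heart, so that the groups overlapped. Its difference was 0.11 (95% interval −0.36 to 0.58) in the lung and 0.41 (−0.07 to 0.90) in the heart, where it was 0.26 without KO heart replicate 1. In the lung it was −0.089 without WT lung replicate 3.

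Id1 (ENSMUSG00000042745.10), a direct target of SMAD1 and SMAD5, was the partner most like Tmem100. It was at 9.996, 9.77 and 9.93 in WT lungs and at 9.64, 9.30 and 9.15 in KO lungs, with a gap of 0.13 between the groups. In the heart it was at 8.70, 8.53 and 8.98 in WT and at 9.34, 9.31 and 9.32 in KO mice, with a gap of 0.34. All KO libraries of Id1 were thus below the WT group in lung and above it in heart. The log2 difference was −0.54 (standard error 0.17, 95% interval −0.93 to −0.14) in the lung and 0.59 (standard error 0.15, interval 0.25 to 0.93) in the heart. Over all genes these did not pass the test, with adjusted p-values of 0.806 and 0.439 from limma. The difference of the genotype effect between the tissues was 1.12 (standard error 0.22, interval 0.64 to 1.604), and its adjusted p was 0.257 (0.173 to 0.616 over the alternatives), which did not pass either.

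Id3 (ENSMUSG00000007872.4) was at 10.87, 10.64 and 10.41 in WT lungs and at 10.84, 10.85 and 10.33 in KO lungs, and these overlapped. In the heart it was at 9.76, 9.09 and 10.06 in WT and at 10.56, 10.16 and 10.58 in KO mice. Every KO heart was above every WT heart, by a gap of 0.10. The difference was 0.03 (95% interval −0.42 to 0.48) in the lung and 0.80 (interval 0.25 to 1.34, adjusted p = 0.548 from limma) in the heart. Between the tissues it differed by 0.77 (interval 0.03 to 1.5, adjusted p = 0.634), and by 0.50 to 0.98 with 1 library left out. Without WT heart replicate 2, the lowest of its group, the heart difference of Id3 was 0.53. Its lung difference turned sign when WT lung replicate 3 (−0.085) or KO lung replicate 1 or 2 was left out.

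Id2 (ENSMUSG00000020644.10) was at 10.01, 9.60 and 9.48 in WT lungs and at 9.97, 9.92 and 10.02 in KO lungs. In the heart its values were 8.09, 7.63 and 7.55 in WT and 8.53, 7.99 and 8.50 in KO mice. The groups overlapped in both tissues. The difference was 0.27 (95% interval −0.12 to 0.67) in the lung and 0.59 (interval 0.10 to 1.07, adjusted p = 0.623 from limma) in the heart. The lung difference was 0.17 without WT lung replicate 3 and 0.43 without WT lung replicate 1.

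Counted together, none of the 7 partners passed the call rule in the lung, in the heart or in the difference between them, and limma-voom called none of them either. The rule asked for an adjusted p below 0.05, a change of 1.5-fold or more and a mean of 6 or more in 1 of the groups. It called few genes anywhere: 11 of 16551 in the lung (0.0665%), 13 of 15303 in the heart (0.085%) and 1 of 17666 for the difference between tissues (0.00566%). At an unadjusted p under 0.05 from limma, 1 of the 7 partners was below WT in the lung (Id1), where 2.77% of all genes were. In the heart 3 of 7 were above WT at that level (Id1, Id2 and Id3), beside 4.76% of all genes, and for the difference between tissues 2 of 7 were on the side of the heart (Id1 and Id3), beside 5.07%. Groups that did not overlap were found in lung for Bmpr2 and Id1, beside 12.8% of all genes, and in heart, with KO higher, for Id1 and Id3, beside 7.82%. The median log2 difference of the 7 partners was 0.15 in the lung and 0.41 in the heart, against 0.01 and 0.03 over all genes tested. That of Id1, Id2 and Id3 alone was 0.03 in the lung and 0.59 in the heart.

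**Figure D2:**
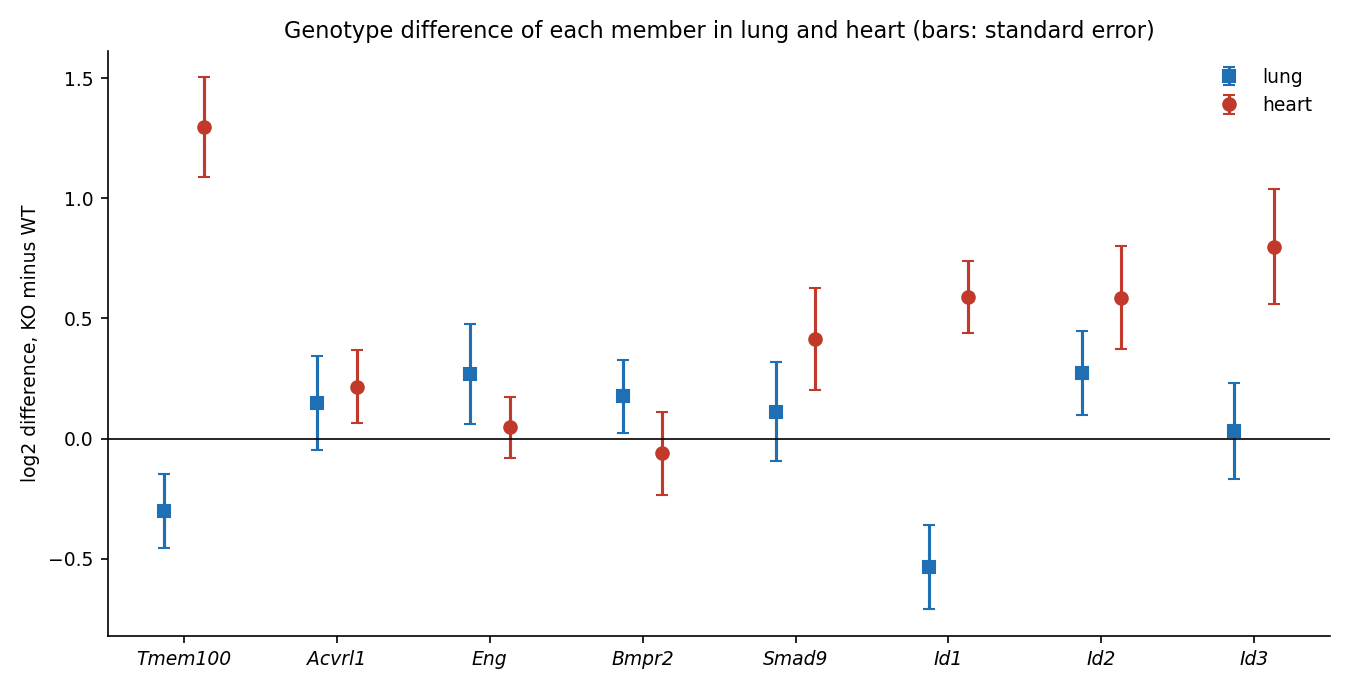
Log2 difference KO minus WT (vertical axis) of each gene in lung (blue squares) and heart (red circles), with the standard error from limma as bars. Tmem100 and Id1 lie below 0 in the lung and above it in the heart, Id2 and Id3 lie highest among the other partners in the heart, and Acvrl1, Eng and Bmpr2 lie within 0.30 of 0 in both tissues.

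Between the tissues, all 8 genes were higher in lung than in heart in WT mice, and 7 of the 8 passed the call rule (all but Eng), beside 29.3% of all genes that were called higher in lung. Tmem100 had the widest contrast of the 8, with a log2 difference of 5.996 in WT (64-fold, adjusted p = 4.0e-11 from limma) and of 4.40 in KO mice (21-fold, adjusted p = 3.8e-10). Acvrl1 followed with 3.57 in WT and 3.50 in KO mice, and Bmpr2 with 2.04 and 2.28. Id2 differed by 1.94 and 1.63 and Smad9 by 1.59 and 1.29. All of these passed the rule in both genotypes. The median over all genes was 0.32 in WT and 0.29 in KO mice toward the lung, and 0.10 in each under a median-of-ratios scaling, so that differences near these values depend on the scaling.

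The contrast between tissues was smaller for 3 genes. Id1 was 1.16 higher in the lung of WT mice (95% interval 0.82 to 1.5, adjusted p = 2.6e-05 from limma) and only 0.04 higher in that of KO mice (interval −0.30 to 0.38, adjusted p = 0.845), where its sign turned under other scalings. Id3 was 1.002 higher in WT lung (interval 0.48 to 1.52, adjusted p = 0.00243). In KO lung Id3 was 0.23 higher (interval −0.28 to 0.75, adjusted p = 0.4), and 0.097 to 0.41 higher with 1 library left out. Passing in WT and not in KO does not show that they differ: the change from WT to KO is the tissue difference of the genotype effect given above, which did not pass for Id1 or Id3. Eng was 0.42 higher in WT lung (interval 0.04 to 0.80, adjusted p = 0.0506) and 0.64 higher in KO lung (adjusted p = 0.00608). That call of Eng in KO mice, 1 of 6 among the 8 genes beside 28.7% of all genes, was lost under 2 other scalings.

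Compared per length, in normalised estimated counts per kilobase of transcript, Tmem100 was among the highest of the 8 genes in lung and among the lowest in heart. In WT lungs the level was 2969 ± 720 (SD, n = 3) for Acvrl1, 2142 ± 276 for Tmem100 and 1585 ± 125 for Bmpr2. The libraries of Acvrl1 and Tmem100 overlapped, and those of Tmem100 and Bmpr2 did not. Lower means were those of Id3 (1287 ± 216) and Eng (1257 ± 350), whose libraries overlapped with each other and with those of Bmpr2, and of Id1 (828 ± 68.0, overlapping with Eng), Id2 (352 ± 69.9) and Smad9 (74.7 ± 16.7). In KO lungs Tmem100 was at 1730 ± 109 and Bmpr2 at 1788 ± 108, and these overlapped.

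In WT hearts the order per length was led by Eng (922 ± 54.0) and Id3 (665 ± 212), followed by Bmpr2 (390.2 ± 86.1) and Id1 (372 ± 59.2). The libraries of Id3 overlapped with those of Eng and of Bmpr2, and those of Bmpr2 with those of Id1. Then came Acvrl1 (199 to 263), Id2 (89.2 ± 20.4), Tmem100 (33.6 ± 8.18) and Smad9 (24.2 ± 3.15). Tmem100 and Smad9 overlapped in WT hearts. In KO hearts Tmem100 was at 81.9 ± 6.16 and Smad9 at 32.8 ± 7.02, and their libraries were apart. Even there Tmem100 stayed below Id2 (137 ± 25.8) and Acvrl1 (269.6 ± 15.3). The level of Tmem100 in KO hearts was thus far below that in either group of lungs.

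**Figure D3:**
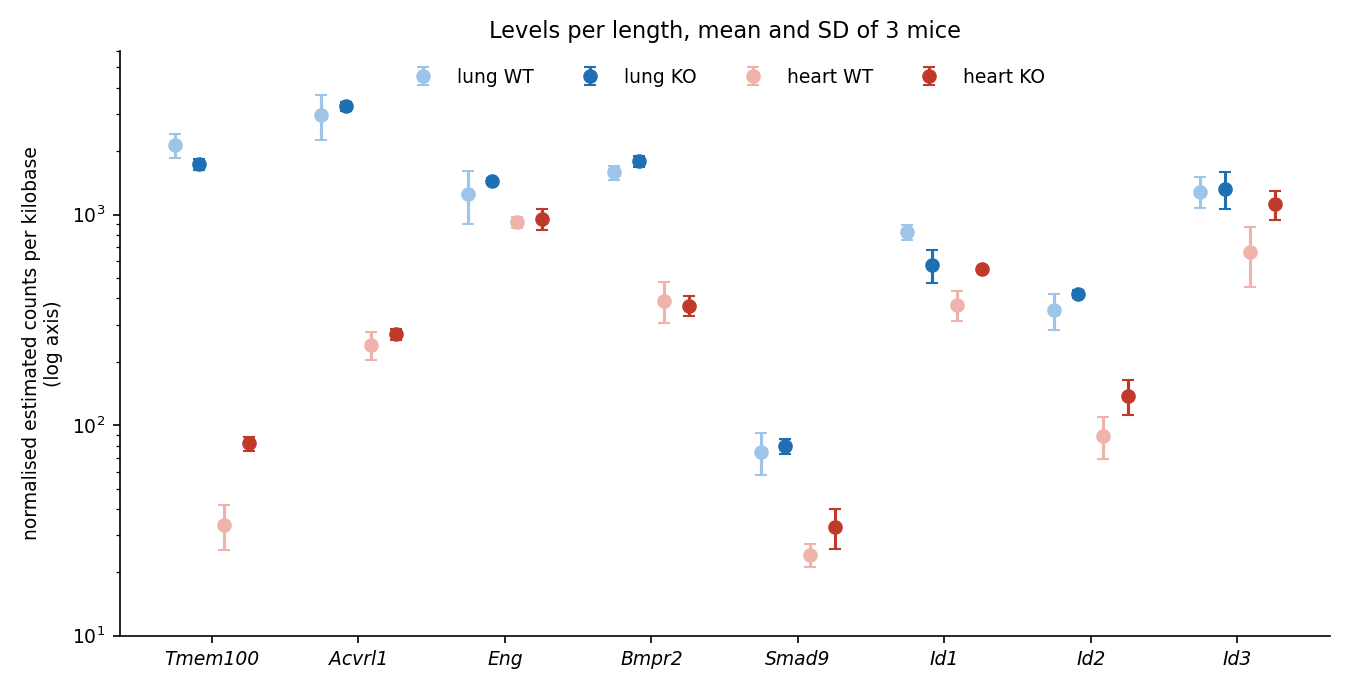
Level of each gene per length, in normalised estimated counts per kilobase on a log axis, as mean and SD of 3 mice for the lung WT, lung KO, heart WT and heart KO groups. Tmem100 spans the widest range of the 8 genes, from 33.6 in WT hearts to 2142 in WT lungs, while Eng stays between 922 and 1451.

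Since endothelium is the cell type this pathway is known for, its general markers were set beside the 8 genes. Of 16 endothelial markers, none passed the call rule in either tissue, a rule that few genes met, and their median difference was 0.14 in the lung and 0.12 in the heart. The lung median depends on WT lung replicate 3. That library was low in Tie1 (11.02 against 11.95 and 12.1) and Esam (10.72 against 11.73 and 11.80), and high in Emcn (10.27 against 9.58 and 9.74). At an unadjusted p under 0.05, 3 of the 16 were above WT in the heart, Sox17 (0.71), Egfl7 (0.44) and Vwf (0.37), beside 4.76% of all genes, and none in the lung, beside 3.15%. The sizes of Sox17 and Egfl7 depend on WT heart replicate 2, which was low in both. It was at 6.39 in Sox17, against 7.28 and 7.58 in the other WT hearts and a KO heart mean of 7.79. In Egfl7 it was at 10.25, against 10.74 and 10.68. The groups of Sox17 and Egfl7 did not overlap in the heart, where 7.82% of all genes were apart with KO higher. In the lung those of Egfl7 were apart with KO lower, beside 12.8% of all genes in either direction. Their summed level was 14.90 to 15.02 in WT hearts and 15.01 to 15.03 in KO hearts. It was 16.37 to 16.47 in WT lungs and 16.41 to 16.55 in KO lungs. Relative to the mean of the 16 markers in the same library, Tmem100 was at −3.59, −2.99 and −3.91 in WT hearts and at −2.44, −2.22 and −2.39 in KO hearts, a difference of 1.15. In the lung it was at 1.04, 0.78 and 1.37 in WT and at 0.64, 0.53 and 0.75 in KO mice, a difference of −0.42. These values restate the differences on which Tmem100 was selected, less the small shift of the markers, and the part of endothelial content was not tested. Taken the same way, Id1 differed by 0.44 in the heart and −0.66 in the lung.

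Other lists were less even. Among 10 mural cell markers, which mark pericytes and smooth muscle, 4 had every KO heart above every WT heart: Tagln (1.38), Cnn1 (1.28), Myh11 (0.81) and Acta2 (0.62), genes of the smooth muscle contractile apparatus, beside 7.82% of all genes. The other 6 had heart differences between −0.11 (Abcc9, with every KO heart below every WT heart) and 0.44 (Cspg4). In the lung 4 of the 10, Rgs5 (0.72), Notch3 (0.44), Abcc9 (0.43) and Cspg4 (0.43), had every KO library above every WT library, beside 12.8% of all genes with groups apart in either direction. None passed the test in either tissue, and in the heart the summed level of the list was 15.53 to 15.55 in WT and 15.69 to 15.80 in KO hearts. Atrial muscle markers summed to 14.80 to 16.57 in WT hearts and 16.03 to 17.20 in KO hearts, and to 11.78 to 12.90 in WT lungs and 11.08 to 12.01 in KO lungs. All 4 of them had higher means in KO hearts (0.16 to 1.07) and lower means in KO lungs (−0.79 to −0.66), the directions of Tmem100, with a median of 1.19 for the difference between tissues, and none passed the test. For Sln, Myl7 and Myl4 the heart direction rested on WT heart replicate 3, which was low (9.83, 12.47 and 12.35). Their KO heart means (11.74, 14.40 and 14.08) were below both other WT hearts. KO heart replicate 2 was low in these genes too (10.10, 12.76 and 12.24). Nppa was at 15.35, 15.40 and 14.03 in WT hearts and at 16.32, 15.72 and 15.96 in KO hearts. Its groups were apart, beside 7.82% of all genes with KO higher. Its heart difference of 1.07 had an unadjusted p under 0.05 from limma, beside 4.76% of all genes. Heart muscle markers summed to 20.96 to 21.24 in WT hearts and 20.97 to 21.18 in KO hearts, and to 13.94 to 14.68 in WT lungs and 13.42 to 13.95 in KO lungs. In the lung 7 of these 8 markers had lower means in KO mice, the direction of Tmem100 there, with a median of −0.39. At an unadjusted p under 0.05, 2 were below WT (Myl3 at −0.96 and Myh6 at −0.84), beside 2.77% of all genes. The groups of Myl3 were apart, beside 12.8% of all genes in either direction. Endocardial markers summed to 11.21 to 11.95 in WT and 11.72 to 12.11 in KO hearts, and markers of lung capillaries to 11.96 to 12.13 and 12.17 to 12.34. None of the mural, atrial muscle, heart muscle, endocardial and lung capillary markers was at 0 in any library. The part of vessel walls, atrium, heart muscle or endocardium in the Tmem100 result was not tested. In the lung, capillary markers summed to 14.74 to 14.86 in WT and 14.54 to 14.71 in KO mice, with 7 of 10 below WT and none past the rule. These sums were thus below WT in every KO lung and above WT in every KO heart, the pattern of Tmem100. No single marker of the 10 showed it, since none had groups apart in the lung. A sum rests most on its most abundant genes. In the lung that was Hpgd, whose difference was −0.28 there and −0.10 in the heart. In the heart 7 of the 10 were above WT. There 2 were so at an unadjusted p under 0.05, beside 4.76% of all genes, and 2 had groups apart with KO higher, beside 7.82%. The part of lung capillaries in the Tmem100 result was not tested. Of 10 lung epithelial markers, 7 had lower means in KO lungs. Sftpc (−0.67) and Hopx (−0.63) were below WT at an unadjusted p under 0.05, beside 2.77% of all genes. Both had every KO lung below every WT lung, and Foxj1 (0.34) had every KO lung above every WT lung. In either direction 12.8% of all genes had groups apart in the lung. Scgb1a1 was above WT at an unadjusted p under 0.05 (0.64), beside 3.15% of all genes. The part of lung epithelium in the lung difference of Tmem100 was not tested. All 5 red blood cell markers had lower means in KO mice, with differences of −1.17 to −0.82 in the lung and −0.33 to −0.24 in the heart, and none passed the test. In each of them KO lung replicate 1 was the highest lung (Hbb-bt 13.23). The other KO lungs (8.85 and 9.51) were below every WT lung. The heart direction rested on WT heart replicate 3, which was high (Hbb-bt 11.69 against 9.98 and 9.44 in the other WT hearts). The KO heart mean of Hbb-bt was 10.06. It rested on KO heart replicate 2 as well, which was low (8.49 against 11.38 and 10.31). Immediate early genes, which respond within minutes to many stimuli, had medians of −0.21 in lung and −0.03 in heart. The sign of the lung median rested on WT lung replicate 2, the highest of all lungs in each of these genes. For Nr4a1 it was at 10.09, against 7.84 and 6.44 in the other WT lungs and a KO lung mean of 8.06. WT heart replicate 2, from the same mouse, was the highest heart in Fos (8.99), Egr1 (8.75) and Nr4a1 (9.51).

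The wider pathway was followed in 46 further genes of 5 lists. The test covered 41 of them in lung and 42 in heart, and none passed the call rule in either tissue or in the difference. At an unadjusted p under 0.05, 8 of the 42 were above WT in the heart, beside 4.76% of all genes, and 1 was below it. The groups of 11 of the 42 were apart in the heart with KO higher, beside 7.82%, and those of 2 with KO lower. The shares of all genes with KO lower in the heart were not taken. The counts in the 2 directions can therefore not be compared with each other. In the lung 1 of 41 was above WT at that level, beside 3.15% of all genes, and none below, beside 2.77%. The ligands of ALK1 itself were looked at for their role and outside the rule for named genes. Gdf2, which encodes BMP9 and is made in the liver, was between 0 and 1.73 in all libraries and was not tested. Bmp10, made in the atrium, was at 0 in all 6 lungs. In the heart it was at 10.64, 10.71 and 10.45 in WT and at 12.53, 7.55 and 11.95 in KO mice. Of the other ligands, Bmp2 differed by 0.54 in the heart (95% interval 0.00 to 1.08, adjusted p = 0.67 from limma), with every KO heart above every WT heart, and by −0.26 in the lung. Bmp7 differed by 0.49 in the lung and 0.13 in the heart.

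Of 12 other BMP targets, 11 were above WT in the heart and 6 in the lung, with medians of 0.36 and 0.08. Of all genes tested, 55.0% were above WT in the heart and 51.6% in the lung. At an unadjusted p under 0.05, 2 of the 12 were above WT in the heart, beside 4.76% of all genes, and 1 in the lung, beside 3.15%. Smad6, the inhibitory SMAD that feeds back on the receptors, was at 8.16, 8.04 and 8.41 in WT hearts and at 9.29, 8.65 and 9.35 in KO hearts, with no overlap. Its difference was 0.89 in the heart (95% interval 0.42 to 1.37, adjusted p = 0.385 from limma) and −0.13 in the lung (interval −0.94 to 0.68). Hamp, which encodes the iron hormone hepcidin, differed by 1.06 in the heart (interval −0.46 to 2.57) and by 1.45 in the lung (interval 0.53 to 2.37, adjusted p = 0.806), where it was at 3.37 to 4.16 in WT and 4.74 to 5.76 in KO mice. In the heart Hamp was at 6.53, 6.77 and 5.13 in WT and at 8.36, 5.65 and 7.58 in KO mice. The size of its heart difference depends on single libraries.

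No receptor or SMAD outside the 8 genes passed the test. Of 11 further receptors and co-receptors, 8 were above WT in each tissue, with medians of 0.06 in the lung and 0.14 in the heart. The largest of these differences was that of Bmpr1b in the heart, a type I receptor of low level named after its values were seen, at 4.40, 3.89 and 4.39 in WT hearts and 5.39, 4.67 and 4.93 in KO hearts (0.76, adjusted p = 0.691 from limma). Tgfbr2, the type II receptor of TGF-beta, differed by 0.30 in the heart and 0.06 in the lung, and Tgfbr3, which encodes betaglycan, by 0.23 and 0.25. Smad5 differed by −0.17 in the heart and 0.00 in the lung, and Smad4 by −0.07 and −0.08. Among 13 antagonists and inhibitors, 10 were tested in each tissue, and their medians were 0.02 in the lung and 0.14 in the heart. Fstl3, a secreted binder of activins, differed by 0.68 in the heart (95% interval 0.20 to 1.16, adjusted p = 0.571 from limma) and 0.26 in the lung (interval −0.54 to 1.06). The sign in the lung rested on WT lung replicate 3, at 7.49 against 8.91 and 8.83 in the other WT lungs. The KO lung mean of Fstl3 was 8.67. Vwc2, a secreted BMP antagonist, differed by 0.97 in the heart (interval 0.38 to 1.56, adjusted p = 0.481) and was not tested in the lung.

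**Figure D4:**
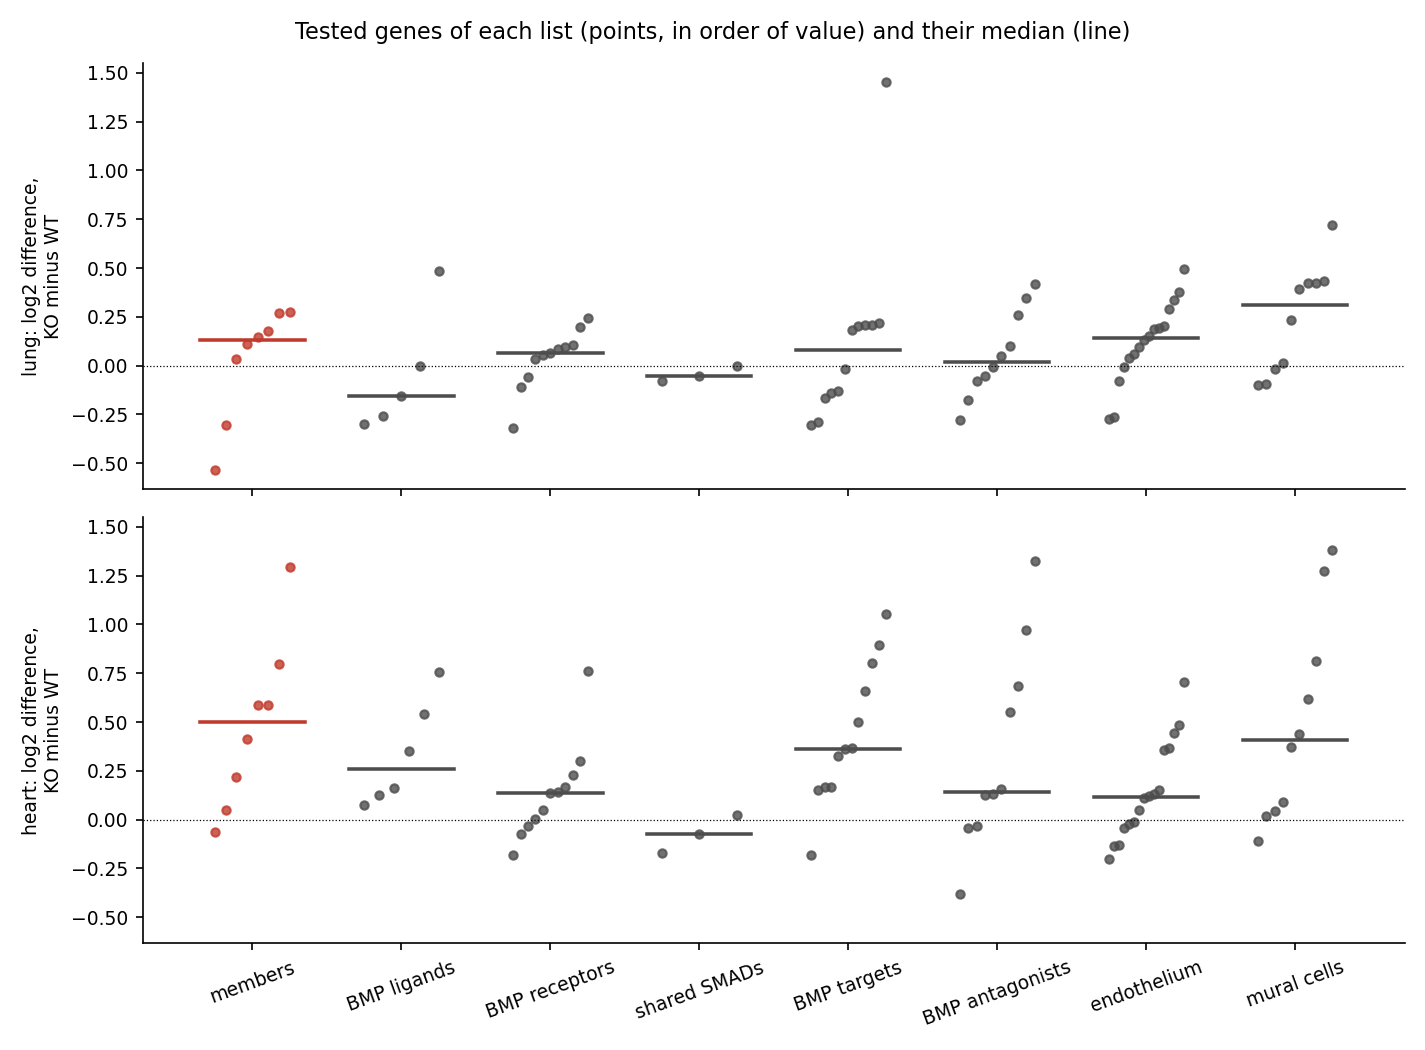
Log2 difference KO minus WT of each tested gene (points, ordered by value within a list) in lung (upper panel) and heart (lower panel), with the median of each list as a line; the 8 genes described here are in red. In the heart the medians are 0.36 for the other BMP targets, 0.14 for receptors and 0.12 for endothelial markers; the red line of the 8 genes includes Tmem100, which was selected on its difference, and that of its 7 partners alone is 0.41. The isolated point at 1.45 in the lung is Hamp.

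The genes whose values followed Tmem100 most closely were sought over the 12 libraries, as deviations from the mean of each tissue. Among 11250 genes they were D430019H16Rik (r = 0.91), Nub1 (0.89), Tes (0.89), Col4a3 (0.89) and Mgp (0.88). In the heart these differed by 1.18, 0.28, 0.77, 0.46 and 0.91, and in the lung by −0.04, 0.02, −0.22, −0.05 and −0.07. Mgp encodes matrix Gla protein, a secreted inhibitor of BMPs, and Col4a3 a chain of basement membrane collagen. Bmp2 ranked 20th (r = 0.83) and Id1 164th (0.68), with Id2, Smad9 and Id3 between 0.47 and 0.51. The receptors were near 0, with 0.07 for Acvrl1, 0.00 for Bmpr2 and −0.11 for Eng. All of these are values of the same 12 libraries, so that they share depth and scaling, and they are given as a description. Deviations from the tissue mean also hold the genotype differences on which Tmem100 was selected. The order therefore in part restates which genes share those differences.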

How the data were processed

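Stranded total RNA libraries of 6 lungs and 6 hearts were processed by the authors, whose notes name cutadapt, STAR, Salmon, limma 3.42.2 and the mm39 build. They deposited 2 tables on a log2 scale, of 55679 genes and 147907 transcripts. The transcript values read as log2(1 + estimated count). In nearly all genes with 1 transcript and a high transcript value, the gene values add a constant per library between −0.63 and 0.80. Genes with low values were not part of that check. In genes with several transcripts, such as Adam19, the gene value need not follow their sum. The designs foresaw log2 values, and limma 3.58.1 (R 4.3.3) was fitted to the deposited gene values over all genes with at least 3.46, the log2 of 1 + 10, in 3 libraries, with a trend of variance and Benjamini-Hochberg adjustment. Lung and heart were fitted apart, and tissue contrasts in 1 model of 12 libraries. The p-values measure the spread between 3 mice a group. Levels per length divided estimated counts by GENCODE vM39 transcript lengths. Promoters were read from GRCm39 with pysam, in windows of 250 and 2000 bases, and CACGTG was searched too. Of the genes, 55128 were matched to GENCODE vM39 by identifier. A lncRNA or other gene overlaps all of the 8 genes but Tmem100 and Smad9. All values of single genes rest on estimates that split shared reads.

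Lung and heart of a replicate are the same mouse by its identifier. Deviations from group means correlated by −0.07 to 0.14 between the tissues of a mouse over 17666 genes. The genes described and all lists were chosen with earlier results of these data known. Named beside the 8 genes were Adam19, the 5 genes most like Tmem100 and markers as counts. The 2 genes with the largest difference in either tissue were named from each BMP list, since none was called. They needed a group mean of at least 6. Single markers were also named after their values were seen, often those furthest from WT in their list. None of these markers passed the call rule between the genotypes. Lists of arterial and lymphatic endothelium, fibroblasts, macrophages, neutrophils, lymphocytes and adipocytes held no called gene in lung or heart, by a rule that few genes met. All 6 lymphatic markers had higher means in KO lungs and lower means in KO hearts, opposite to Tmem100 (median −0.34 between tissues). Of 5 arterial markers, 2 were above WT in lung at an unadjusted p under 0.05 (Bmx 0.47, Mecom 0.40), beside 3.15% of all genes. Their groups were apart there, beside 12.8% in either direction. Steps were tested on simulated data.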

Additional observations from a re-analysis of the deposited data

Results flagged for a closer look

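For 4 genes of the lists, every KO library moved one way in the lung and the other way in the heart. For Tmem100 the heart difference exceeded the lung difference by 1.60, which was not tested because the gene was chosen for it. Id1 showed the same directions, with 1.12 between the tissues, and this did not pass the test over all genes (adjusted p = 0.257 from limma). Egfl7, a secreted endothelial protein, also had lower KO lungs and higher KO hearts, with 0.72 between them. Abcc9, a potassium channel subunit of mural cells and heart muscle, had higher KO lungs and lower KO hearts, at −0.54. Over all 17666 genes, 0.617% had the directions of Tmem100 and 0.323% those of Abcc9.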

How the results depend on the processing

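Tmem100 kept its direction in the lung (−0.40 to −0.22), in the heart (1.15 to 1.48) and in the difference between tissues (1.45 to 1.78) under all settings run. Its mean level per length in KO lungs was 1537.5 under median-of-ratios scaling. Counts of called genes were less stable. With the filter on low values met in every library, 1 gene was called in the lung and 7 in the heart. For the difference between tissues, 4 genes were called with a pseudocount of 10. With 1 library left out, between 10 and 21 genes were called in the heart (21 without KO heart replicate 2) and between 0 and 5 for the difference (5 without WT heart replicate 3, and 0 without WT lung replicate 1 or 2, KO lung replicate 1 or 3 or KO heart replicate 1). With the mouse as replicate block (the pairing of lung and heart of a mouse), 2 genes were called for the difference, and no call on the 8 genes changed. At an unadjusted p under 0.05, the partners past the threshold numbered 1 in the lung, 3 in the heart and 2 for the difference.

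Small differences turned sign. The heart difference of Eng was −0.0073 under upper-quartile scaling. The difference between tissues of Acvrl1 was −0.033 and −0.046 under median-of-ratios and upper-quartile scaling, and the tissue difference of Id1 in KO mice was −0.11 and −0.031. With 1 library left out, the lung difference ranged from −0.061 to 0.27 for Acvrl1, −0.089 to 0.22 for Smad9 and −0.085 to 0.20 for Id3. The heart difference ranged from −0.023 to 0.13 for Eng and −0.18 to 0.11 for Bmpr2. The difference between tissues ranged from −0.063 to 0.28 for Acvrl1 and −0.38 to 0.0086 for Eng, and the tissue difference of Id1 in KO mice from −0.10 to 0.14. Acvrl1 and Smad9 turned without WT lung replicate 3, and Id3 without that library or without KO lung replicate 1 (−0.051) or 2 (−0.059). The lung difference of Eng ranged from 0.039 (without WT lung replicate 3) to 0.42. Without WT lung replicate 3, Eng was called between WT tissues (0.65, adjusted p = 0.000621). The call of Eng between KO tissues was lost under both scalings (0.45 and 0.53) and without KO heart replicate 3 (0.56). The cause was not tested in any of these. In WT hearts, Tmem100 rests on 51 to 112 estimated counts.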
